A study of Mus musculus with 6 samples.

Results

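Connexins are the membrane proteins that build gap junctions, and 8 mouse connexin genes were described on 6 arrays: Gjd2, Gja1, Gja3, Gjb1, Gjb2, Gjb6, Gjc1 and Gjc3. They were found by gene symbol in the array's probe annotation, each was represented by 1 probe, and together they are 8 of the 17390 named genes tested. The genes were chosen by their family and selected on values that include the difference in spot intensity between knockdown and control, so for them that contrast is a description and supports nothing. Their Entrez gene numbers are 14617 for Gjd2, 14609 for Gja1, 14611 for Gja3, 14618 for Gjb1, 14619 for Gjb2, 14623 for Gjb6, 14615 for Gjc1 and 118446 for Gjc3.

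The cells were oligodendrocyte precursors, the glial progenitors that make oligodendrocytes, from the forebrain of Jcl:ICR mouse embryos at E15.5. The Chd7 KD group (3 arrays) was infected with a retrovirus that knocks down Chd7, a chromatin remodeller, and the Control group (3 arrays) with a control retrovirus. Both groups grew with FGF2 and PDGF-AA and were harvested 3 days after infection, and each sample was read on its own one-colour array. Whether the replicates were grown as separate cultures is not in the labels. The p-values therefore rest on the spread between these 6 samples alone, and that spread may be technical.

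In a gap junction, connexins of neighbouring cells dock to form channels that pass ions and small molecules. Different cells of the nervous system use different members. Gjd2 (Cx36) is the main connexin of electrical synapses between neurons, Gja1 (Cx43) and Gjb6 (Cx30) are those of astrocytes, and Gjb1 (Cx32) and Gjc3 (Cx29) are known from oligodendrocytes and Schwann cells of the mouse. Gjb2 (Cx26) works in the inner ear and is made in the meninges, Gjc1 (Cx45) in the heart's conduction system, and Gja3 (Cx46) in the lens.

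The array scale needs a word before the values. Raw signal on blank spots averaged 58.9 to 61.9 per array with an SD of 0.870 to 1.05, and a probe counted as detected above the blank mean plus 2 SD, a limit of 60.6 to 64.0. The median raw signal of all probes was 83.4 to 89.4, and 87.0% to 89.8% of probes lay above the limit. Precision is limited by having 3 arrays in each group. Log2 intensities below carry an offset of 50, which compresses the differences of dim probes, so for dim connexins the signal above the blank mean is printed too. The knockdown itself was visible: the brighter of the 2 Chd7 probes read 8.54, 8.44 and 8.48 in the KD arrays, against 9.44, 9.20 and 9.47 in the Control arrays (log2 fold change -0.88), and the other probe had -0.48.

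Gjd2 was low in each knockdown array. Its signal above the blank mean was 10.5, 8.83 and 10.2 in KD replicates 1 to 3, against 34.0, 31.6 and 35.5 in Control replicates 1 to 3. The groups did not overlap. The KD arrays still lay 9.18 to 11.7 blank SDs above the blank mean, so a weak signal remained in each. Binding of other RNA to this probe was not examined, so how much of that signal is Gjd2 RNA is not known. On average 9.85 ± 0.891 units were left in KD cells and 33.7 ± 1.94 in Control cells (SD, n = 3 each), or 29.2% of the Control signal before any scaling between arrays.

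After normalisation, Gjd2 had log2 intensities of 5.95, 5.96 and 5.95 in KD arrays, against 6.46, 6.37 and 6.47 in Control arrays. On this scale, which compresses dim values, the KD arrays spanned less than the Control arrays did. The means were 5.95 ± 0.00435 and 6.43 ± 0.0523 (SD, n = 3 each). The log2 fold change was -0.48 (SE 0.0321), with an adjusted p of 0.000301 in limma's fit over all genes, given here as a description because Gjd2 was picked with this contrast in view. By that p it stood at place 6 of the 17390 genes, and by the value of the fold change at place 173 from the low end. An offset of 16 gave -0.91. The authors' processed values gave -1.71, and there Gjd2 read 8, 7 and 7 in KD arrays against 28, 24 and 27 in Control arrays. The scanner files fall into sets of 3 by the slope between gains, a gain group A of KD replicate 2 and Control replicates 1 and 2 and a gain group B of the other arrays, and within A the Gjd2 value was -0.46 (adjusted p = 0.0504). In these bulk samples, fewer cells that make Gjd2 and less Gjd2 RNA per cell cannot be told apart.

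**Figure D1:**
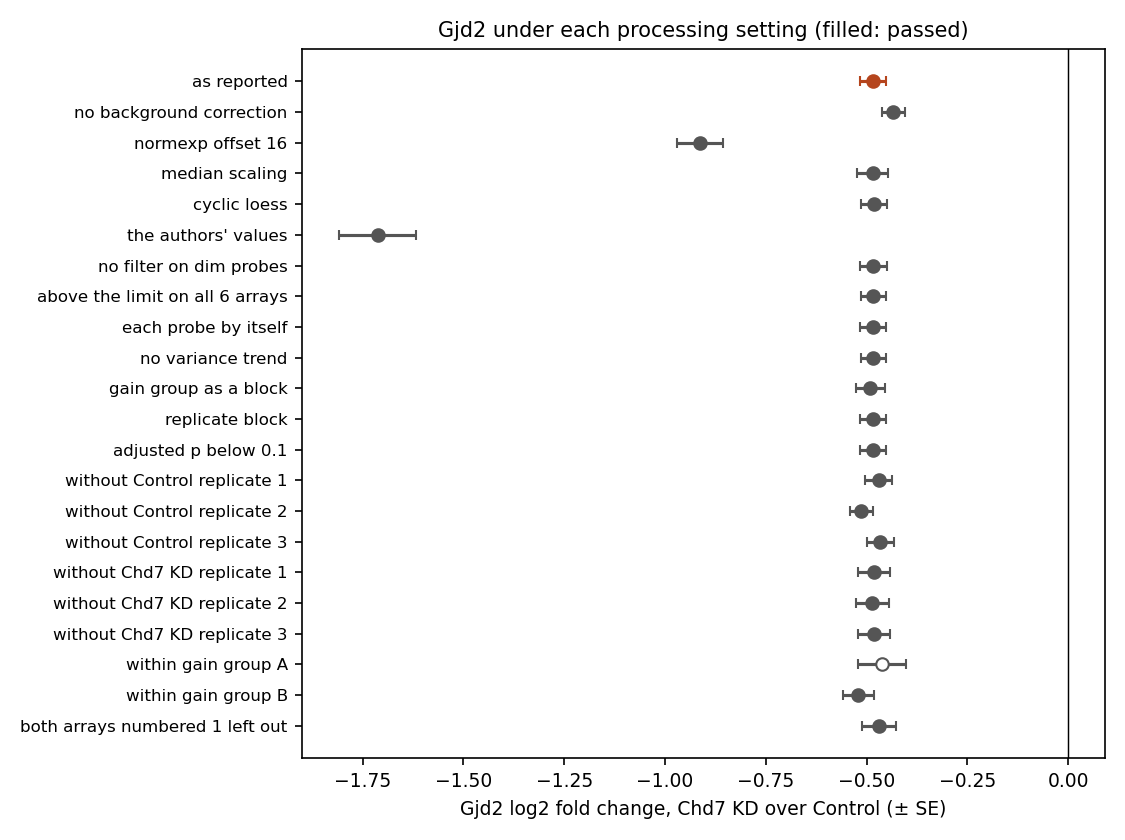
The log2 fold change of Gjd2 (Chd7 KD over Control, horizontal axis, points with SE bars) under the reported processing and 21 other settings, one per row, with filled points where the gene passed the threshold. The value lay between -0.43 and -0.52 in all settings but the smaller offset (-0.91) and the authors' values (-1.71), and it missed the threshold only within gain group A.

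Gjd2 lies on chromosome 2, and its neighbours there were read in the RefSeq gene order of the GRCm38.p6 assembly. All 10 of its nearest protein-coding neighbours, 5 on each side, were tested, and 3 of them fell: Actc1, Arhgap11a and BC052040. Of all genes tested 5.15% were lower. None of the 10 neighbours rose, and 9 had negative values, where 49.4% of all genes did. Some of these negative values lay close to 0. These neighbours were looked up after their values had been seen. Actc1, the cardiac muscle actin gene, lies directly beside Gjd2. Its log2 intensity was 6.44, 6.43 and 6.33 in KD arrays, against 7.36, 7.57 and 7.43 in Control arrays, with no overlap (log2 fold change -1.06, SE 0.0632, adjusted p = 0.000181 in limma). The call held whichever array was left out (adjusted p at most 0.00208).

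On the other side of Gjd2 lies Arhgap11a, which encodes a GTPase-activating protein. It read -0.25 (SE 0.0657, adjusted p = 0.047), a call lost whichever array was left out (adjusted p at most 0.154). BC052040, the fifth gene on the Actc1 side, read -0.08 (SE 0.0172, adjusted p = 0.0186) and passed in 3 of the 6 fits without 1 array (at most 0.0811, without KD replicate 1) and not with median scaling (0.0787). The genes between them, Aqr, Zfp770 and Dph6, read -0.04, -0.02 and -0.20 and did not pass. Fmn1, Grem1, Scg5 and Tmco5b, on the Arhgap11a side, read -0.0019, -0.04, -0.19 and 0.005. The other Fmn1 probes read 0.0057 and -0.07. On this scale the differences of Gjd2 and Actc1 were thus larger than those read at the other neighbours. This contrast between neighbours was not tested, and the offset compresses the differences of dim genes. In the authors' values BC052040 read -0.59 and Arhgap11a -0.37, against -1.94 for Actc1 and -1.71 for Gjd2. Each of the other 7 connexin genes had 6 to 9 of its 10 neighbours tested, with some neighbours shared. Those that passed were Smpdl3a (0.79) near Gja1, Pspc1 (0.32) near Gja3, Il17d (-0.18) near Gjb6 and Ccdc43 (-0.43) near Gjc1. Smpdl3a and Pspc1 were each the fifth gene away. Over all genes tested 4.49% were higher and 5.15% lower, and nothing is read from these calls. Pspc1 did not pass in any fit without 1 array (adjusted p at most 0.123), and Il17d passed in 2 of the 6 (at most 0.0931).

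**Figure D2:**
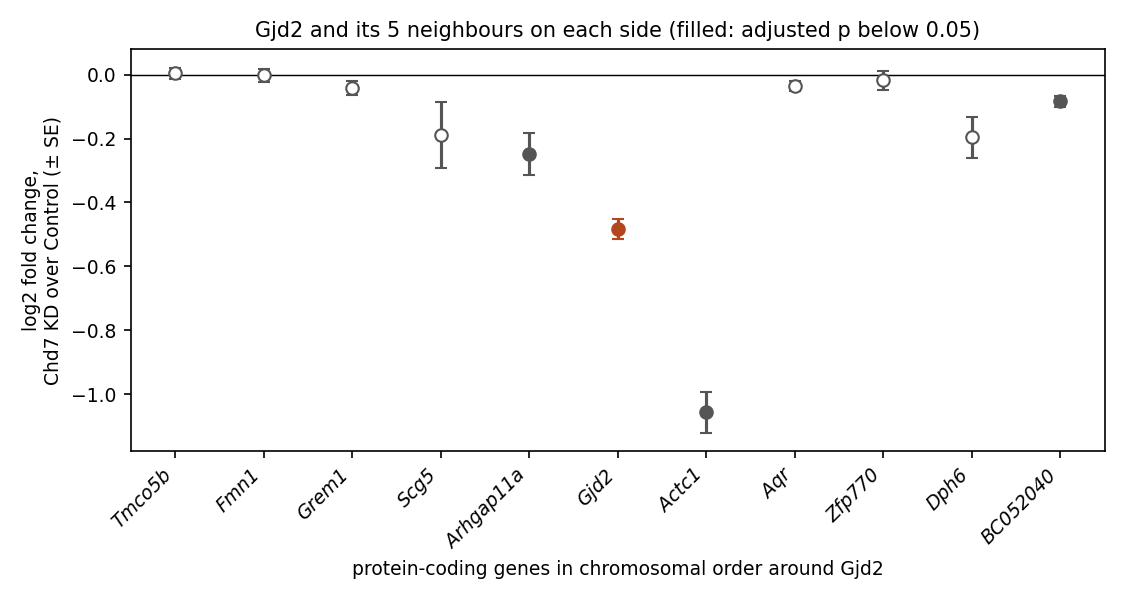
Log2 fold change (Chd7 KD over Control, vertical axis, points with SE bars) of Gjd2, in orange, and of its 5 protein-coding neighbours on each side in chromosomal order, in grey, with filled points where the adjusted p was below 0.05. On this scale, which compresses dim probes, Actc1 (-1.06) and Gjd2 (-0.48) stand below the other genes, which lie between -0.25 and 0.005.

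The sequences before the start sites of Gjd2 and Actc1 are shown because these adjacent genes were both lower and are read from the same strand. Each is the 250 bases upstream of the RefSeq start (GRCm38.p6, minus strand), at chr2:114013620-114013869 for Gjd2 and chr2:114052876-114053125 for Actc1. Capitals mark E-boxes (CANNTG) and GC boxes (GGGCGG), searched on both strands.
Gjd2: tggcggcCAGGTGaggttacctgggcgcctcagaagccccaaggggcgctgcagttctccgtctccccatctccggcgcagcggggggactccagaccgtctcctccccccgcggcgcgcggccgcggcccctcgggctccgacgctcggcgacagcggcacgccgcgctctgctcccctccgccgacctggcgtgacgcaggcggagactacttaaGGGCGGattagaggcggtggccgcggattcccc
Actc1: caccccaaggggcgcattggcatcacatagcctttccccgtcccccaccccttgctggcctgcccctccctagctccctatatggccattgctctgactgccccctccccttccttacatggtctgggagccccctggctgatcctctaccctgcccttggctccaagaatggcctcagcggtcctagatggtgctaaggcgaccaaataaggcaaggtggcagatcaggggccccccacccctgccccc
The Gjd2 stretch is 74% G or C and holds 33 CG pairs, more than 96% of the 32851 start sites in the table, whose median is 6. The Actc1 stretch is 63.6% G or C and holds 4 CG pairs. Gjd2 has 1 E-box and 1 GC box, motifs found in 66.2% and 32.7% of all such windows, and Actc1 has neither. The TATAAA motif, found in 12.4% of windows, was in neither. Other connexin windows were CG-rich too, with 26 and 29 CG pairs at the 2 starts of Gja3 and 18 at Gjb2, while Gja1 held 6, Gjb6 5, Gjc3 3 and the 4 starts of Gjb1 1 to 10. A match is only a run of letters, and no binding was measured.

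Of the 8 connexin genes, 1 passed an adjusted p of 0.05 in limma's fit over all genes, which was Gjd2, and it was lower. Gjb6 came nearest among the others, at 0.0602. Over all genes tested 9.64% passed, 4.49% higher and 5.15% lower (1677 genes, 781 and 896). The groups of arrays did not overlap for 2 of the 8, Gjd2 on the low side and Gjb6 on the high side, against 15.4% and 14.5% of all genes, or 29.9% in either direction. At an unadjusted p below 0.05 there were 3 of the 8 (Gjd2, Gja1 and Gjb6), where 24.6% of all genes were. The median log2 fold change of the 8 was -0.02, beside 0.00077 for all genes. Since the contrast entered the choice of these genes, nothing is read from these counts.

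**Figure D3:**
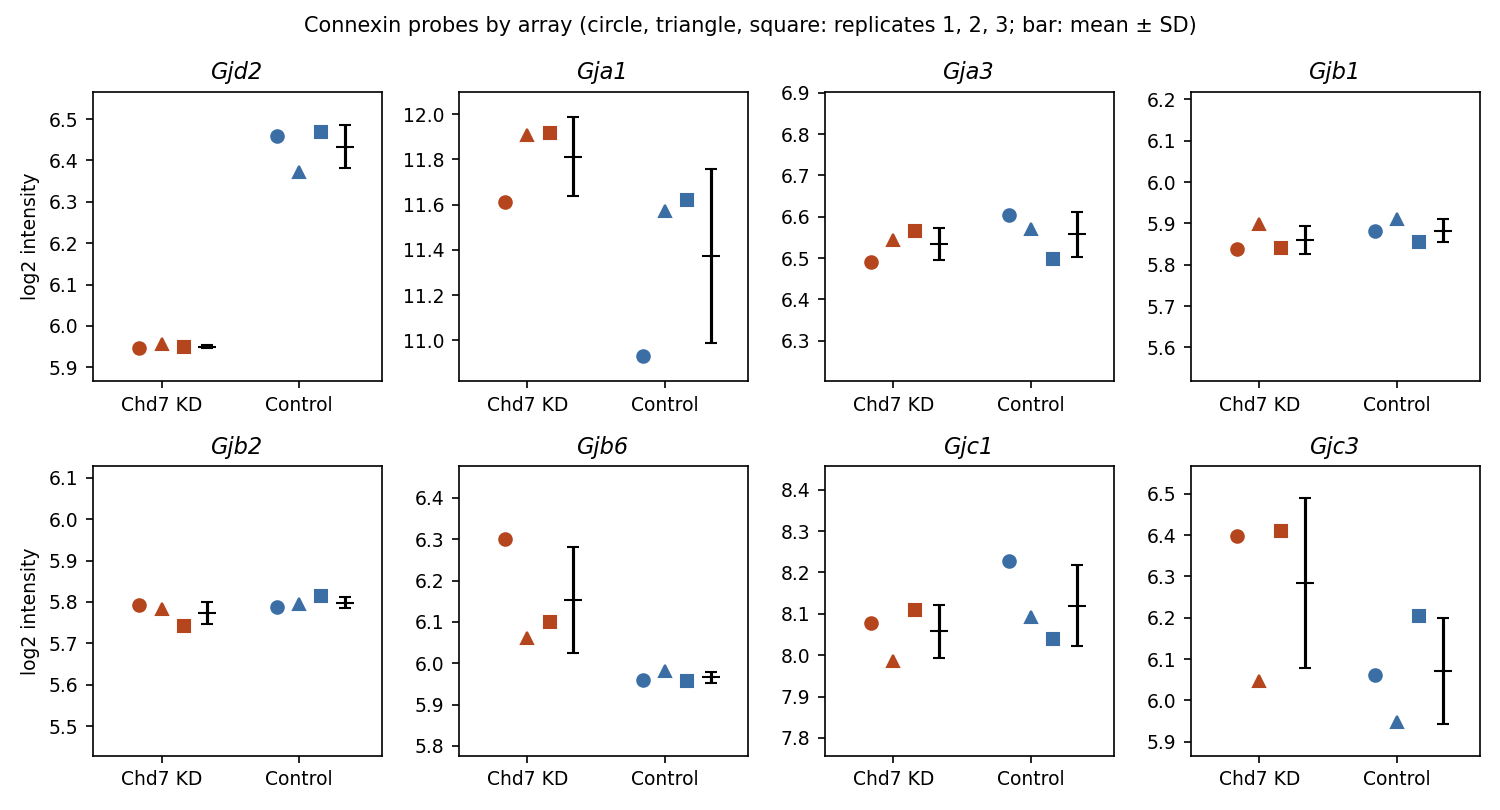
Log2 intensity (vertical axis, each panel with its own range) of the 8 connexin probes on each array, Chd7 KD in orange on the left and Control in blue on the right, with the mean and SD of each group as black bars. Gjd2 shows KD arrays near 5.95 below Control arrays from 6.37 to 6.47, while a low Control array (10.9) widens the spread of Gja1.

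The astrocyte connexin Gja1 had a raw signal far above the limit on every array. Its raw values were 3449.9, 3460.5 and 4043 in KD arrays, against 1818, 3118 and 3274 in Control arrays, and its log2 intensities were 11.6, 11.9 and 11.9 in KD arrays against 10.9, 11.6 and 11.6 in Control arrays. The groups overlapped, since KD replicate 1 fell just below Control replicate 3 after normalisation, and Control replicate 1 stood well below all other arrays. The difference on the log2 scale was 0.44 (SE 0.174) with an adjusted p of 0.157. Without Control replicate 1 it was 0.22, and within gain groups A and B it was 0.66 and 0.14. Between arrays of the same number the KD array was higher each time, by 0.68, 0.34 and 0.30 for numbers 1 to 3. With the replicate number as a block, which removes what same-numbered arrays share, the adjusted p of Gja1 was 0.00897.

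Gjb6, the second astrocyte connexin, was dim. Its signal above the blank mean was 28.5, 13.2 and 17.7 in KD arrays, against 9.58, 11.3 and 9.41 in Control arrays. All KD arrays exceeded all Control arrays, with KD replicate 1 well above the rest. The log2 fold change was 0.19 (SE 0.0537, adjusted p = 0.0602, or 0.0181 with the replicate block). Before scaling, the mean signal above blank was 1.96 times the Control value. Gjb6 passed with median scaling (adjusted p = 0.0338) and without KD replicate 1 (0.11, adjusted p = 0.0489) or KD replicate 2 (0.23, adjusted p = 0.0429). Within gain groups A and B it read 0.09 and 0.24, while in the authors' values it read 0.80 (adjusted p = 0.0877).

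Gjc3, the mouse glial connexin Cx29, split the arrays in another way. Its signal above blank was 34.2, 12.6 and 35.5 in KD arrays, against 14.0, 9.85 and 20.5 in Control arrays. KD replicate 2 fell among the Control arrays, so the groups overlapped. The log2 fold change was 0.21 (SE 0.0964, adjusted p = 0.212, or 0.00897 with the replicate block), and it was 0.33 with an adjusted p of 0.0294 without KD replicate 2. The arrays of highest Gjc3 are those of gain group B, which share a scanner gain slope of 0.478 to 0.479, while the other arrays have 0.464 to 0.467. Within gain group B the KD mean exceeded the Control array by 0.20 on the log2 scale, and within gain group A the KD array exceeded the Control mean by 0.04. With gain group as a block the Gjc3 difference was 0.12 (SE 0.0466, adjusted p = 0.17).

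Together, the replicate block added 3 calls to the 8 connexin genes, all higher: Gja1, Gjb6 and Gjc3. With the block 4 of the 8 passed, 3 higher and 1 lower, where 14.8% of all genes passed and 7.38% were higher. Gjd2 differed by -0.51, -0.42 and -0.52 between arrays of the same number, and by -0.46 and -0.52 within gain groups A and B.

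The other 4 connexin genes gave values near 0 on the normalised log2 scale. Gjb1, the myelin-cell connexin Cx32, lay close to the detection limit, with 5.46, 6.69 and 5.55 units above the blank mean in KD arrays against 6.55, 8.18 and 5.33 in Control arrays, and a log2 fold change of -0.02 (SE 0.0227). Gjb2 was at the limit, with 3.64, 2.54 and 1.38 units in KD arrays against 2.97, 3.44 and 3.80 in Control arrays, and it was above the limit on 2 of the 3 KD arrays and on all 3 Control arrays. Its log2 fold change was -0.03 (SE 0.0175). In the authors' values, logged with a small added constant in place of the offset of 50, Gjb1 read -0.09 (SE 0.19) and Gjb2 -0.33 (SE 0.274). Neither passed. Gja3, the lens connexin, had 40.6, 37.0 and 45.4 units in KD arrays against 43.1, 44.2 and 37.4 in Control arrays (log2 fold change -0.02, SE 0.0437). Gjc1 had clear signal, with 235.04, 178 and 234 units in KD arrays against 235, 228 and 216 in Control arrays (log2 fold change -0.06, SE 0.0705, and -0.17 and 0.05 within gain groups A and B). The adjusted p of these 4 genes ran from 0.428 for Gjb2 to 0.795 for Gja3, which does not show that they did not differ.

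Gja3, Gjb2 and Gjb6 lie next to each other on chromosome 14 in the RefSeq gene order of the GRCm38.p6 assembly. Their log2 fold changes were -0.02, -0.03 and 0.19, so the values of the 3 neighbours did not share a sign. The next gene on the Gjb6 side, Cryl1, read -0.30 (SE 0.101, adjusted p = 0.0997).

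The other genes of the connexin and pannexin families were then examined. Pannexins form related membrane channels that do not join cells. Of 8 other connexin genes with a named probe 6 were tested, and all 3 pannexins were tested. None of these 9 passed in limma's fit over all genes, while 2 had an unadjusted p below 0.05. These were Gja6, the mouse connexin Cx33, which read -0.13 on the log2 scale (SE 0.0542, adjusted p = 0.192), and Panx3, which read 0.07 (SE 0.0198, adjusted p = 0.0675). The others read 0.02 for Gja4 (Cx37, of blood vessel lining), -0.01 for Gja5 (Cx40, of heart and arteries), 0.09 for Gjb5, 0.08 for Gjd3, 0.0051 for Gjd4, -0.03 for Panx1 and 0.02 for Panx2. Gjd4 was barely detected, above the limit on 1 of 3 KD and 2 of 3 Control arrays. Gja10 and Gje1 were not well above background on any array.

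**Figure D4:**
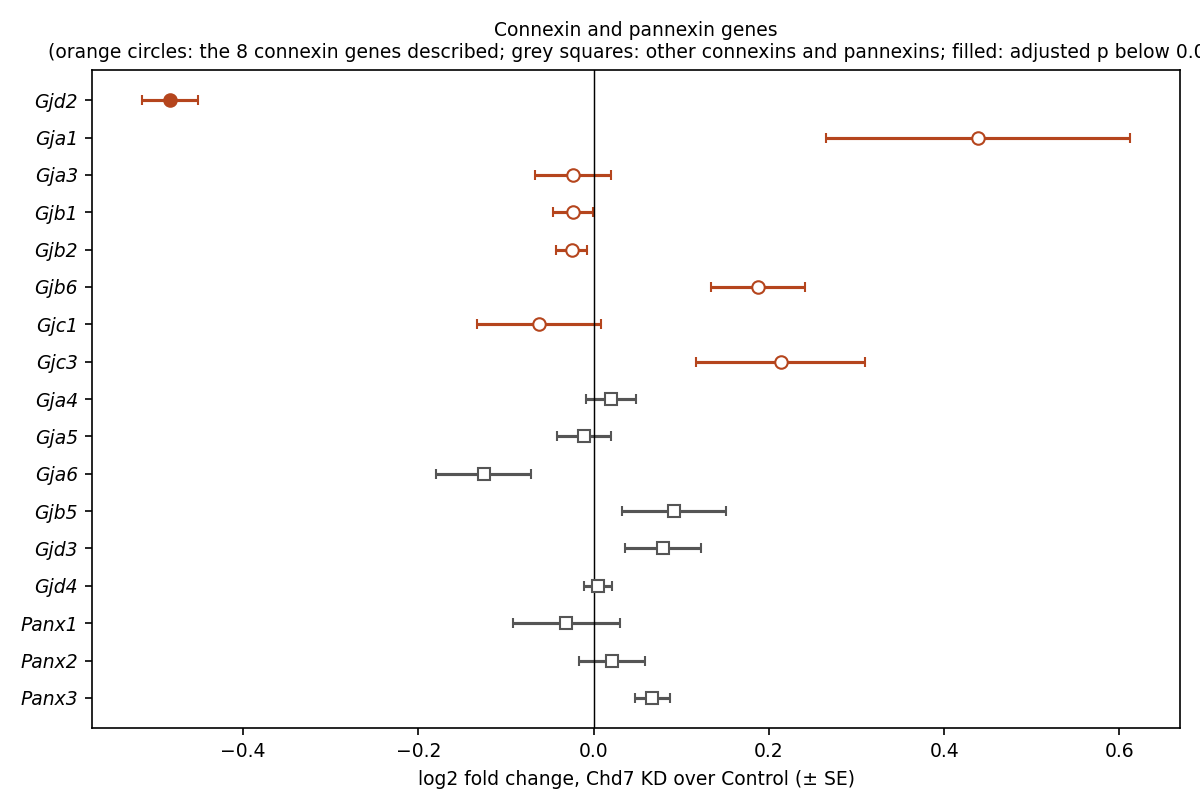
Log2 fold change (Chd7 KD over Control, horizontal axis, points with SE bars) of the 17 connexin and pannexin genes tested, with the 8 connexin genes described as orange circles and the other 9 as grey squares. Gjd2 is the single filled point (adjusted p below 0.05), and the other 9 genes lie between -0.13 and 0.09.

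Proteins that hold, move or remove gap junction channels gave a mixed result. Of 33 such genes 29 were tested, of which 4 rose, 4 fell and 21 did not pass, with a median log2 fold change of 0.01. These 8 calls compare with the 4.49% of all genes that were higher and the 5.15% that were lower.

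Among scaffold genes and known partners of Gjd2, 8 were tested, 1 rose and 2 fell. Ybx3, whose product ZONAB is a DNA-binding protein that associates with the scaffold ZO-1, fell by 0.80 (SE 0.0794, adjusted p = 0.0012). Its log2 intensity was 7.83, 8.07 and 8.09 in KD arrays, against 8.82, 8.77 and 8.81 in Control arrays. Mpdz, a scaffold with many PDZ domains, fell by 0.23 (adjusted p = 0.0173, passed in 4 of the 6 fits without 1 array, at most 0.0685). Camk2b, a subunit of the calcium/calmodulin kinase CaMKII that binds Cx36, rose by 0.47 (adjusted p = 0.0236), and passed in 2 of the 6 fits without 1 array (at most 0.0866). Tjp1, which encodes ZO-1 itself, read 0.06 (SE 0.0552), and Camk2a read -0.06 (adjusted p = 0.11).

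Among 15 genes of connexin transport and turnover, 2 rose and 1 fell. Dbn1, whose product drebrin links Cx43 to actin, fell by 0.38 (SE 0.0644, adjusted p = 0.00792), with log2 intensities of 7.995, 8.08 and 7.96 in KD arrays, against 8.36, 8.46 and 8.37 in Control arrays. Smurf2, a ubiquitin ligase gene, rose by 0.28 (adjusted p = 0.0442) on 1 probe and read 0.06 on the other, and Csnk1d, which encodes a casein kinase known to phosphorylate Cx43, rose by 0.22 (adjusted p = 0.0456). Both calls were lost whichever array was left out (adjusted p at most 0.14) and with median scaling (0.172 for Smurf2 and 0.203 for Csnk1d). Tsg101, of the sorting machinery that leads to lysosomes, read -0.20 (adjusted p = 0.0855).

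Among 6 adhesion genes of cell junctions, 1 rose and 1 fell. Vcl, encoding the actin linker vinculin, rose by 0.50 (SE 0.0889, adjusted p = 0.00978), with log2 intensities of 8.46, 8.14 and 8.42 in KD arrays, against 7.81, 7.80 and 7.91 in Control arrays. Ctnna2, the neural alpha-catenin gene, fell by 0.23 (adjusted p = 0.0492), a call lost whichever array was left out (at most 0.142). Ctnna1 read 0.43 (adjusted p = 0.0649, or 0.0164 with the replicate block). The N-cadherin gene Cdh2 read 0.14 (adjusted p = 0.231). Of the 8 calls in these 3 lists, Ybx3, Dbn1 and Vcl passed whichever array was left out.

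Markers of cell types that use different connexins were set beside these values. The shares over all genes were 4.49% higher and 5.15% lower, and 14.8% passed with the replicate block. Of 11 neuron markers, all tested, 4 fell and none rose without the replicate block: Dcx (-0.71), Elavl4 (-0.60), Elavl3 (-0.31) and Map2 (-0.12). The second probes of Elavl4 and Elavl3 read -0.46 and -0.54. Elavl3 and Map2 were less firm, with adjusted p of at most 0.134 and 0.169 when 1 array was left out, 1 of 6 such fits passing for Elavl3 and 0 for Map2. The summed normalised intensity of the list was 1395 to 1642 in KD arrays and 1768 to 1969 in Control arrays, without overlap. Most of that sum came from Dcx, Elavl3 and Elavl4, which are among the genes that fell. The median log2 fold change of the list was -0.02. With the replicate block 5 passed as lower and 1 as higher, adding Tubb3 (-0.20, adjusted p = 0.033) and Syt1 (0.20, adjusted p = 0.017). Of the others, Gad1 read 0.13, Snap25 0.01, Stmn2 -0.02 and Rbfox3 0.00093, and Gad2 read -0.0081 on 1 probe and -0.21 on the other. The neuron markers and the neuronal connexin Gjd2 thus moved in the same arrays for part of the list, and the part of neuronal cells in the Gjd2 value was not tested.

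Of 10 astrocyte markers, 1 rose and 1 fell, against 4.49% and 5.15% of all genes, beside the higher readings of Gja1 and Gjb6. Acsbg1, a fatty acyl-CoA synthetase gene, rose by 0.50, and the transcription factor gene Sox9 fell by 0.50. Slc1a2, a glutamate transporter gene, read -0.47 (adjusted p = 0.2, or 0.0163 with the replicate block) and 0.09 on its other probe. Aldh1l1 read 0.24, Aldoc -0.18, Gfap 0.05, Slc1a3 -0.03, Aqp4 -0.03, Fgfr3 0.02 and S100b -0.00072. The summed intensity of the list was 14889.9 to 15015 in KD arrays and 14682 to 15415 in Control arrays, which overlapped. The part of astrocyte-like cells in the Gja1 and Gjb6 values was not tested.

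Of 7 precursor markers tested 5 fell and none rose, where 5.15% of all genes were lower and 4.49% higher. Those that fell were Pdgfra (-1.36), Lhfpl3 (-0.96), Sox10 (-0.52), Cspg4 (-0.48) and Olig2 (-0.35). The summed intensity of all 7 was 9713 to 11009.6 in KD arrays against 12625 to 14909.7 in Control arrays, most of it from Olig1, which did not pass. Without Olig1 the sums were 3272 to 3470.4 in KD arrays and 5020.1 to 5654 in Control arrays. Olig2 missed the threshold under median scaling (0.132) and in 2 of the 6 fits without 1 array (at most 0.0665), and Olig1 read -0.24 (adjusted p = 0.248, or 0.0371 with the replicate block). The precursor genes were present in both groups. Of 7 myelin genes tested, 1 fell (Ugt8a, -0.54, passing in 3 of the 6 fits without 1 array) and none rose, with summed intensities that overlapped (1409 to 1875 in KD arrays against 1561 to 2029.6 in Control arrays) beside Gjb1 and Gjc3. With the replicate block 2 myelin genes passed as higher, Mog (0.24, adjusted p = 0.0112) and Mobp (0.17, adjusted p = 0.0119), as Gjc3 did. The other Mog probe read 0.05 without the block, and Ugt8a still passed as lower with it (adjusted p = 0.000798). For comparison, 14.8% of all genes passed with the block, and 7.38% were higher. Cnp read -0.20 and Mbp 0.17. Of 17 tested markers of meningeal, endothelial and microglial cells none passed in limma, and 1 (Dcn, 0.04) had an unadjusted p below 0.05. Pdgfrb, Flt1 and Csf1r read -0.02, 0.05 and 0.04, and Pecam1, Cldn5, Tek and Itgam were below the limit.

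The genes whose values over the 6 arrays were most like those of Gjd2 were Prkcq, Peli1, Commd8, Ssna1 and Ncald, by Pearson correlation. The coefficient was 0.999 for Prkcq, a protein kinase C gene with log2 intensities of 6.40, 6.36 and 6.42 in KD arrays, against 7.88, 7.62 and 7.84 in Control arrays. It was 0.998 for Peli1, a ubiquitin ligase gene, and 0.997 for Ncald, the neuronal calcium sensor neurocalcin. The log2 fold changes were -1.38 for Prkcq (its other probe read 0.0099), -0.55 for Peli1, -0.44 for Commd8, -0.49 for Ssna1 and -0.34 for Ncald. A coefficient above 0.99 with Gjd2 was reached by 58 genes, or 0.334% of those tested, and the points share the same 6 arrays and the same split into 2 groups, so no p is given.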

How the data were processed

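The deposited intensity of each spot is its median at 635 nm, per the file headers, which also list flags at 3 scanner gains and the least-squares lines that relate the gains. RNA was amplified as amino allyl aRNA and coupled to Cy5 by TORAY's procedure, per the labels' protocols. No source used here names the scanner software. The authors also deposited processed intensity values. Set against the scanner values, each array of these was linear in the spot median with its zero at 58.8 to 61.8, close to the blank mean. No source states this step, and log was absent. The slope of that line differed between arrays, from 0.696 in KD replicate 3 to 0.840 in KD replicate 2. The median of the authors' values was nevertheless 29 or 30 on each array, so these values had been scaled between arrays to nearly the same median. For the fits on these values a small constant was added before log2 was taken, which also compresses the dimmest probes.

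Each array held 27456 spots and 23473 probes, of which 20690 had 1 gene symbol in the platform annotation and 2783 had none. All 8 connexin genes matched RefSeq (GRCm38.p6), which also gave gene order and promoter sequences. The normexp correction (offset 50) was run on all spots with no local background. Log2 values of the gene spots were then quantile normalised, and spots of 1 probe were averaged. Testing required a raw signal over the blank mean by 2 SD on at least 3 arrays, and 1 probe flagged at all gains was left out, leaving 20957. The probe with the highest mean stood for a gene. Groups were compared with limma 3.58.1 (lmFit, eBayes with a trend, two-sided, R 4.3.3) and Benjamini-Hochberg adjustment over 17390 genes. The adjusted p-values in the text come from this fit unless stated. The procedure was tested on simulated data, with changes placed only in genes brighter than Gjd2 and with arrays drawn independently. That run therefore does not cover the dim connexin genes or a pairing of arrays.

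Both groups carry replicate numbers 1 to 3, whose meaning the labels leave unsaid. Between arrays of the same number, deviations from their group's mean had correlations of 0.362, 0.382 and 0.228, so the numbers were taken as pairing the samples, from the data alone. The main fit has no block, so its adjusted p-values leave this pairing out. Results of the replicate block are printed where they change a call on a connexin or partner gene. Scanner gain slopes formed 2 sets, gain group A (0.464 to 0.467, Control replicates 1 and 2 and KD replicate 2) and gain group B (0.478 to 0.479, the rest).

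Named genes were the 8 connexin genes, every tested gene of the other connexin and pannexin lists, the passing genes of the partner and marker lists with the next by p up to 4 in a partner list, and the 5 genes most correlated with Gjd2. Chromosomal neighbours, Tjp1 and some marker examples were added with their values in view. The genes and lists were picked with earlier results of these data known. Alternatives were other background corrections, normalisations, filters and variance models, the authors' values, both blocks, another threshold and leaving out each array. Figures were drawn with matplotlib 3.10.9.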

Additional observations from a re-analysis of the deposited data

How the results depend on the processing

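Gjd2 kept its sign in all 21 other settings and passed in all but 1: within gain group A, with 2 Control arrays against 1 KD array, it read -0.46 (adjusted p = 0.0504). Its range without 1 array was -0.51 to -0.47. All settings draw on the same arrays, and Gjd2 was picked with this contrast in view. Changing the filter on dim probes, the variance trend, the replicate block or the threshold could not alter its fold change. The count of settings is therefore a description. The count of connexin genes that passed was 2 with median scaling and at an adjusted threshold of 0.1 (Gjb6 added), 4 with the replicate block, 0 within gain group A, and 1 to 3 without 1 array. The replicate block, which takes the number as a pairing, otherwise added Ctnna1 and changed no other call named in the report's connexin, pannexin and partner lists. Of the other connexins and pannexins 1 (Panx3) passed at the threshold of 0.1, and 0 without any 1 array. Partner genes that passed numbered 4 in the authors' values, 5 with gain group as a block, 3 to 5 without 1 array, 2 without both arrays numbered 1, and 0 within either gain group.

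The main count over all genes was 1677 (781 higher, 896 lower), against 1093 (356 higher, 737 lower) in the authors' values. The count was 2577 with the replicate block, 2688 at the threshold of 0.1, 800 without both arrays numbered 1, 39 within gain group A and 39 within gain group B, and 750 to 1453 without 1 array. Within a gain group and without 1 array fewer samples enter, and a lone array is assumed to vary like the others. The within-group fits and the fit without both arrays numbered 1 were chosen after seeing the data.

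Signal over background limits the dim members. Gjb1 and Gjb2 lay within a few units of the detection limit. In the authors' values the sizes grew for Gjd2, Gjb6, Gjc3, Gjb2 and Gjb1, to -1.71, 0.80, 0.77, -0.33 and -0.09. Those of Gja3 and the brighter Gjc1 grew too, to -0.06 and -0.12, while Gja1 read 0.42. Over the other settings Gja1 ran from 0.14 to 0.66, lowest within gain group B and highest within gain group A, and Gjc3 from 0.04 to 0.77.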
